A study of Ipomoea batatas with 28 samples.

Results

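Thickening within pencil roots was examined in sweet potato (Ipomoea batatas, a hexaploid crop) by comparing roots of 5 mm diameter, stage S12, with roots of 3.5 mm, stage S10. The 8 libraries compared, 4 per stage, were those that the labels give to these stages, out of 28 libraries in the series. All roots were wild type, RNA came from the middle section of the root, and the labels call the replicates of a stage biological replicates. The other 20 libraries came from fibrous roots (S4, 1.5 mm, and S8, 2 mm) and storage roots (S14, 10 mm, S16, 15 mm, and S20, 25 mm), with 4 per stage. They took part in the estimate of the spread of each ID but not in the S10 and S12 means. The labels do not say how old the roots were, whether the roots of 1 replicate number came from the same plant, or whether a pencil root of this kind would have become a storage root.

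A storage root forms when a thin root gains a vascular cambium and further meristems around its vessels, whose divisions fill the root with parenchyma that stores starch and storage protein. A root that instead lignifies its stele stays thin. In the field's usual language a pencil root is a moderately thickened root, often lignified, and it stands between the fibrous and the storage form in diameter. The S10 and S12 roots are thicker than the fibrous roots of this series and thinner than its storage roots. They are ordered by diameter and were not followed over time.

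The values are TPM, a transcript abundance corrected for row length, in which every library has the same total. A TPM value is a share of the library, so fewer cells of a type and less RNA per cell cannot be told apart. Depth was not given and TPM does not keep it, so errors come from the spread between replicates alone. The rows carry IDs with no gene name, and 0 of them matched the 175826 rows of the reference table, so no gene group, marker of a cell type or pathway was described and the labelled tissue could not be checked against markers. A row is called an ID here. IDs were tested if they reached 1 TPM in at least 4 of the 28 libraries, which kept 75757 of 99697. There were 2696 IDs just inside that limit, with 1 TPM in exactly 4 libraries, and 3082 just outside it, with 1 TPM in exactly 3.

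The S12 libraries stood further than the S10 libraries along the line from fibrous to storage roots. Each pencil library was placed on the line that joins the mean of the fibrous stages (0%) to the mean of the storage stages (100%) over all IDs tested. IDs that differ most between fibrous and storage roots weigh most in this position, and IDs that differ little hardly count. No pencil library took part in setting that line. S10 replicates 1, 2, 3 and 5 lay at 29.3%, 42.4%, 22.1% and 31.6%. S12 replicates 1, 2, 4 and 5 lay at 56.5%, 45.5%, 74.3% and 60.0%. Every S12 library lay above every S10 library, but the gap between S10 replicate 2 and S12 replicate 2 was small beside the range within either stage. The means were 31.4% ± 8.38 (SD, n = 4) at S10 and 59.1% ± 11.9 (SD, n = 4) at S12, a difference of 27.8 percentage points. A two-sided exact permutation test over the 70 choices of 4 libraries gave p = 0.0286, the smallest value that 4 against 4 allows, and 0.0571 after Benjamini-Hochberg adjustment over 4 such measures. The difference ran from 26.6 to 28.3 points under other pseudocounts, filters and scalings, and from 22.7 to 32.3 points when 1 pencil library was left out.

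**Figure D1:**
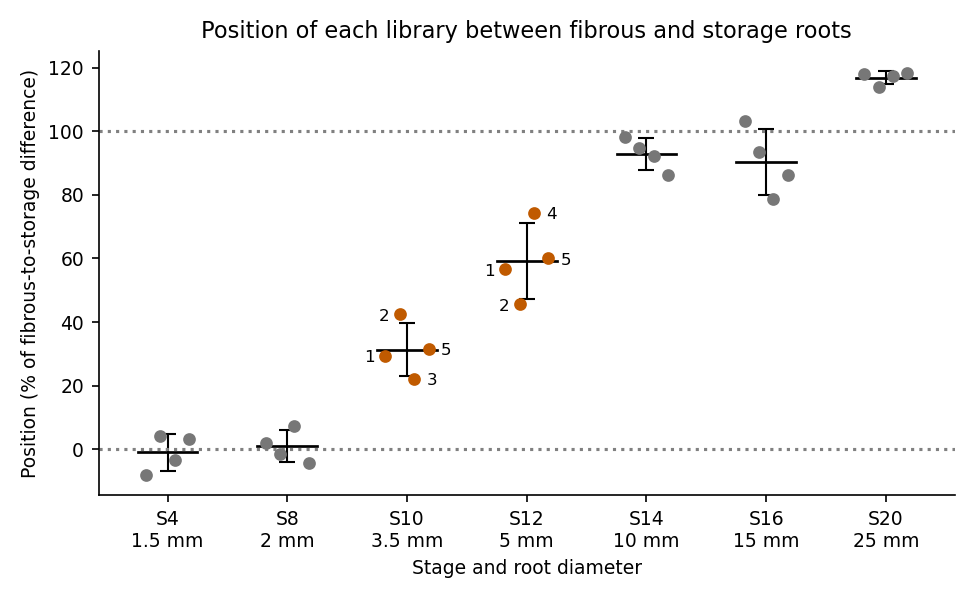
Position of each of the 28 libraries between fibrous roots (0%) and storage roots (100%), in percent of the difference between their mean log2(TPM + 1) profiles, by stage and root diameter. Points are libraries, horizontal lines are stage means, bars are SDs (n = 4), and the numbers beside the pencil libraries are replicate numbers. The fibrous and storage libraries set the scale, so only the pencil libraries (orange) are placed freely, and the 4 S12 libraries (45.5% to 74.3%) lie above the 4 S10 libraries (22.1% to 42.4%).

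More IDs were detected at 5 mm than at 3.5 mm. At least 1 TPM was reached by 54198, 54012, 51799 and 53577 IDs in S10 replicates 1, 2, 3 and 5, and by 55750, 55035, 58392 and 56498 IDs in S12 replicates 1, 2, 4 and 5. The libraries of the stages did not overlap, and the mean difference was 3022 IDs (two-sided exact permutation test, p = 0.0286, adjusted p = 0.0571). It was 1538 after median-of-ratios scaling, which evens out the level of a typical ID between libraries. At a detection limit of 0.1 TPM the difference was 1828 and the exact permutation p was 0.114. Detection also depends on sequencing depth, which is unknown, and its part in the difference was not tested.

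The share of a library held by its 1000 most abundant IDs did not separate the stages. It was 37.0% ± 1.63 (SD, n = 4) at S10 and 34.7% ± 1.85 (SD, n = 4) at S12, with overlapping libraries (exact permutation p = 0.143, adjusted p = 0.190). The distance of a library from its own stage mean, as a root mean square over IDs on the log2 scale, was 0.465 ± 0.0773 at S10 and 0.502 ± 0.0461 at S12 (SD, n = 4 each). That difference of 0.0362 was also within the spread (permutation p = 0.486, adjusted p = 0.486). Libraries of a stage share its mean, so this p is approximate. The difference changed when single libraries were left out. The mean of the reduced stage was then taken from its 3 remaining libraries, which draws it toward them. Leaving out an S10 library thus tends to raise the difference, and leaving out an S12 library to lower it. The size of this effect was not tested. The difference was 0.104 without S10 replicate 2, 0.0667 without S10 replicate 3 and 0.0587 without S10 replicate 5. For the first of these the permutation p, again approximate, was 0.0571, the smallest that 3 against 4 libraries allow. The difference was 0.0195 without S10 replicate 1 and 0.0108 without S12 replicate 5, and its sign turned without S12 replicate 2 (-0.00492) or S12 replicate 4 (-0.0109).

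Libraries of different stages were scarcely further apart than libraries of the same stage. The distance between a pair of libraries, again a root mean square difference in log2(TPM + 1), had a median of 0.715 over the 6 pairs within S10 and 0.811 over the 6 pairs within S12. Over the 16 pairs that cross the stages it was 0.842, with a range of 0.739 to 1.03, and the ranges within S10 (0.664 to 0.930) and within S12 (0.740 to 0.904) overlapped it. Each S10 library had another S10 library as its nearest neighbour among all 27. S12 replicates 4 and 5 were nearest to S12 replicate 1, whereas S12 replicates 1 and 2 were nearest to S10 replicate 1. S10 replicate 2 was about as far from the S12 libraries (mean distance 0.830) as from the other S10 libraries (0.835), and S12 replicate 2 stood nearer to the S10 libraries (0.826) than to the rest of S12 (0.842). The counts of calls, the direction of the called IDs between fibrous and storage roots and the named IDs were also computed without these replicate 2 libraries. The abundance classes, the scalings, the comparison of S8 with S14, the stage medians and the rows of a G number were computed with all libraries only.

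Between S10 and S12, 512 IDs, or 0.676% of those tested, were called, that is, they had a limma p under 0.05 after Benjamini-Hochberg adjustment over all IDs and changed at least 1 unit on the log2 scale. Of these 446 (0.589%) were higher and 66 (0.0871%) were lower in the thicker roots. The higher IDs had a median log2 fold of 1.40 with quartiles of 1.17 and 1.74, and 53 of them rose at least 4-fold (log2 of 2). The lower IDs had a median of -1.50, and 15 of them fell at least 4-fold. In unlogged values, the median stage mean of the higher IDs was 1.93 TPM at S10 and 7.32 TPM at S12, and that of the lower IDs was 9.43 and 2.25 TPM. Over all IDs tested this median was 2.58 TPM at S10 and 3.03 TPM at S12, so a low level was not particular to the higher calls. Of all 446, 157 had a mean of at least 10 TPM over the series and 9 had at least 100 TPM. At 10 to 50 TPM there were 133 of the 446 and 14644 of the 75757 IDs tested. At 50 to 100 TPM there were 15 and 1966, and at 100 TPM or more 9 and 1343.

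The called share differed between levels of abundance and was highest at 5 to 10 TPM. It was 0.108% of the 13878 IDs with a series mean under 1 TPM, 0.531% at 1 to 5 TPM, 1.20% at 5 to 10 TPM, 1.08% at 10 to 50 TPM, 0.814% at 50 to 100 TPM and 0.819% of the 1343 IDs at 100 TPM or more. The median fold of all IDs in these classes was 0.08, 0.14, 0.15, 0.09, 0.01 and -0.01 in turn. In TPM as deposited, the general upward shift at S12 was therefore present in IDs below 50 TPM and near 0 in the abundant ones.

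**Figure D2:**
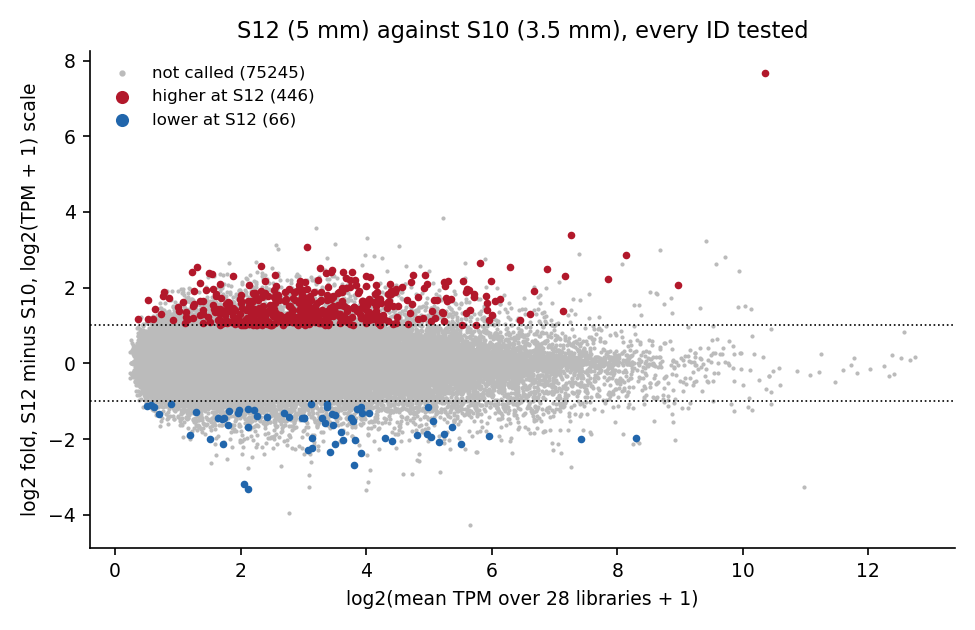
Log2 fold change between S12 and S10 on the log2(TPM + 1) scale (vertical axis) against the mean level over the series as log2(mean TPM + 1) (horizontal axis), 1 point per ID tested. The 446 called higher (red) lie mostly at low and moderate levels, as do most IDs tested, and the 66 called lower (blue) are fewer. Many uncalled IDs (grey, 75245) lie past the dotted lines at a log2 fold of 1 and -1. Their adjusted p was not under 0.05. The red point at a fold of 7.66 is MSTRG.435, whose S10 and S12 libraries overlap.

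The excess of higher over lower IDs depended in size on scaling. In TPM as deposited the 75757 IDs had a median log2 fold of 0.11. Median-of-ratios scaling brought it to 0.02 and gave 208 higher and 86 lower calls. Quantile normalization brought it to 0.01 and gave 165 and 75. Counted relative to the median fold they were 369 and 71. Higher calls were the more frequent in each, and 158 higher and 48 lower IDs were called under all 3 scalings. All S12 libraries lay above all S10 libraries for 5028 IDs (6.64%) and below them for 1472 IDs (1.94%). After median-of-ratios scaling these numbers were 3295 (4.35%) and 2516 (3.32%).

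Single libraries moved the number of calls strongly, and moved the lower calls most. The count was 157 without S10 replicate 1, 105 without S10 replicate 3 and 130 without S12 replicate 4, of which 7, 6 and 11 were lower. It was 1314 without S10 replicate 2, with 839 higher and 475 lower, and 479 of the original 512 calls were among them. Without S12 replicate 2 the total changed little, at 543, but the lower calls numbered 164. Leaving out both replicate 2 libraries gave 760 higher and 684 lower calls, close to balance between the directions. Called in each of the 8 fits that left out 1 pencil library were 79 higher and 3 lower IDs, of which 77 and 3 were also called under all 3 scalings. A fit to the 8 pencil libraries alone called 9 IDs, 3 higher and 6 lower, with 10923 IDs at an unadjusted p under 0.05, so the count also rests on the spread estimated from the other stages.

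**Figure D3:**
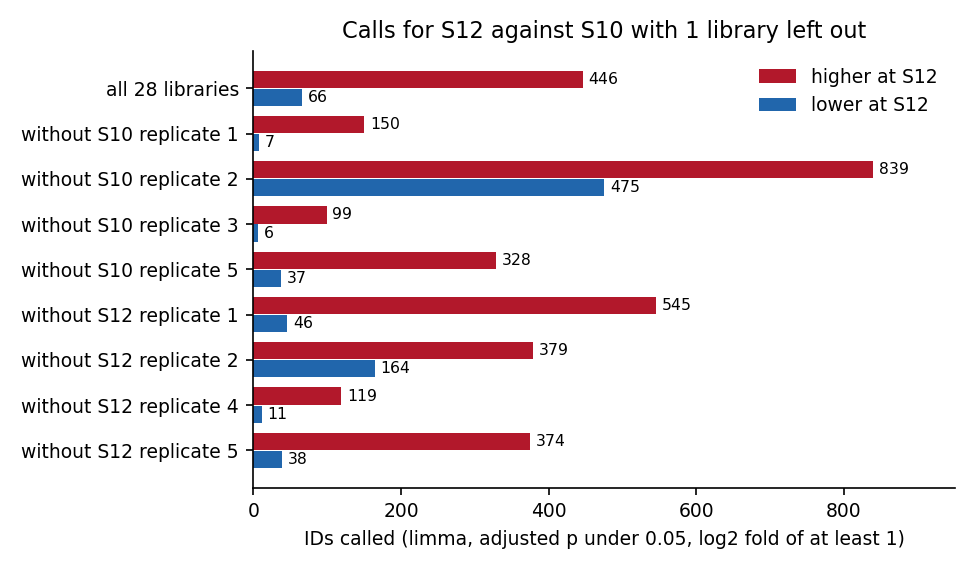
Number of IDs called higher (red) or lower (blue) at S12 than at S10 by limma, from all 28 libraries and with 1 pencil library left out. Higher calls range from 99 to 839 and lower calls from 6 to 475, and both are most numerous without S10 replicate 2.

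Each left-out library gave a check on calls it had no part in. For the IDs called without a library, that library was asked whether it fell on its own stage's side of the midpoint between the stage means of the remaining libraries. S10 replicate 1 did so for 96.2% of the 157 IDs called without it, S10 replicate 3 for 92.4% of 105, S10 replicate 5 for 81.4% of 365, S12 replicate 4 for 89.2% of 130, S12 replicate 5 for 70.1% of 412 and S12 replicate 1 for 68.4% of 591. Over all IDs tested these libraries were on their own side for 54.3% to 66.5%. The share was above that of IDs at large in all 6 cases, and it mostly reflects higher calls. For the few lower calls alone, it was 50% of 6 for S10 replicate 3, below its 62.2% over all IDs, and 59.5% of 37 for S10 replicate 5, beside 57.2%.

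The replicate 2 libraries behaved differently according to direction. S12 replicate 2 was on its own side for 79.4% of the 379 IDs called higher without it, but for 18.9% of the 164 called lower. S10 replicate 2 was on its own side for 53.0% of 839 called higher and for 10.7% of 475 called lower. Over all IDs tested they were on their own side for 48.6% and 47.6%. For most IDs called lower without it, each replicate 2 library was thus not on its own side of the midpoint. This did not carry over to the IDs called lower with all libraries, a list chosen with both included. There the median log2(TPM + 1) of S12 replicate 2 was 1.805, beside 1.325 to 1.799 in the other S12 libraries. That of S10 replicate 2 was 2.719, between these values and the 3.369 to 3.712 of the other S10 libraries. Without information on these plants, a difference between roots and a difference in handling cannot be told apart.

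The IDs that separated S10 from S12 mostly separated fibrous from storage roots in the same direction. The stage means of these comparisons come from different libraries, but both use the spread of each ID over all 28 libraries. An ID with a small spread is more readily called in both, so the shares below are not independent of the first call. Of the 446 higher IDs, 415 (93.05%) were called higher in storage than in fibrous roots and 0 were called lower, where 23.1% of all IDs tested were called higher and 9.66% lower (limma, same rule). Of the 66 lower IDs, 58 (87.88%) were called lower in storage roots and 0 higher. The median log2 fold between storage and fibrous roots was 2.41 in the higher list, -2.81 in the lower list and 0.45 over all IDs tested. After median-of-ratios scaling, 393 of the same 446 and 60 of the same 66 IDs were called in those directions, where 12.4% of all IDs were called higher and 14.6% lower.

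The direction was also seen in IDs chosen from the pencil libraries without any estimate of spread, a choice made after the data were seen. Of the 5028 IDs with all S12 libraries above all S10 libraries, 3309 (65.81%) were called higher in storage than in fibrous roots and 9 were called lower. Of the 1472 IDs with all S12 libraries below all S10 libraries, 769 (52.24%) were called lower and 14 higher. Of all IDs tested, 23.1% were called higher and 9.66% lower. For an ID with no equal values, 1 of the 70 choices of 4 libraries gives non-overlap in a stated direction. Some members of each list are therefore expected from arbitrary labels. The median log2 fold between fibrous and storage roots was 1.28 and -1.06 in these lists, which share no library mean with that comparison.

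The stages that flank the pencil roots, S8 and S14, gave the same picture. Their libraries also belong to the comparison of fibrous with storage roots, so this result is part of that one and no separate support. Between S8 and S14, 410 of the 446 higher IDs were called higher and 1 was called lower. Of the 66 lower IDs, 57 were called lower and 0 higher. Of all IDs tested, 19.3% were called higher and 8.2% lower between S8 and S14. After median-of-ratios scaling 369 of the 446 were called higher and 59 of the 66 lower, where 9.75% of all IDs were called higher and 12.58% lower. The median log2 fold from S8 to S14 in TPM as deposited was 2.05 for the higher list, -2.57 for the lower list and 0.43 for all IDs tested.

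The direction also held in the lists obtained without the replicate 2 libraries, which is no separate check. These libraries were singled out from these data. Of their stages, S10 replicate 2 lay nearest to storage roots and S12 replicate 2 nearest to fibrous roots. Leaving them out widens the gap along that line, from 27.8 points to 31.4 without S10 replicate 2 and 32.3 without S12 replicate 2. Of the 839 and 475 IDs called higher and lower without S10 replicate 2, 768 (91.5%) and 405 (85.3%) were called in the same direction between fibrous and storage roots, and 0 and 1 in the opposite one. Without both replicate 2 libraries, 685 of 760 higher and 626 of 684 lower IDs were so called, and 0 in the opposite direction. The extra lower calls therefore consisted mainly of IDs that are lower in storage roots.

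Viewed from the other side, most IDs that differ between fibrous and storage roots shifted a little in the same direction between 3.5 and 5 mm, and few shifted enough to be called. Of the 17478 IDs higher in storage roots, 90.4% had a positive fold between S10 and S12, with a median log2 fold of 0.42. Of the 7315 lower in storage roots, 86.8% had a negative fold, with a median of -0.48. Among the 50964 IDs called in neither direction 59.3% were positive, with a median of 0.07. Median-of-ratios scaling changed the lists, to 9418 IDs called higher and 11088 called lower in storage roots, so that the lower list became the longer. Of these, 89.0% had a positive and 87.8% a negative fold between S10 and S12. Called between S10 and S12 were 415 of the 17478 (2.37%) and 58 of the 7315 (0.793%), while 0 in each list were called in the opposite direction. Across the 75757 IDs the fold between S10 and S12 and the fold between fibrous and storage roots had a Pearson r of 0.61. This is a description over IDs, which are not independent, and the values share each library's scaling. It was 0.62 after median-of-ratios scaling.

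Over the 7 stages, the 446 higher IDs had median levels in log2(TPM + 1) of 1.02 and 0.98 in the fibrous stages S4 and S8, 1.46 and 2.95 in the pencil stages S10 and S12, and 3.31, 3.51 and 4.04 in the storage stages S14, S16 and S20. Their choice fixes the gap between S10 and S12. The means of the other 5 stages did not enter that fold. Their libraries did enter the filter and the spread behind each call, so these stages are not independent of the choice. The medians of the fibrous stages lay below that of S10, and those of the storage stages lay above that of S12. The 66 lower IDs had medians of 4.32, 4.36, 3.32, 1.63, 1.01, 1.24 and 0.54 in the same order. The medians of all IDs tested moved from 1.59 at S4 to 2.11 at S20.

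**Figure D4:**
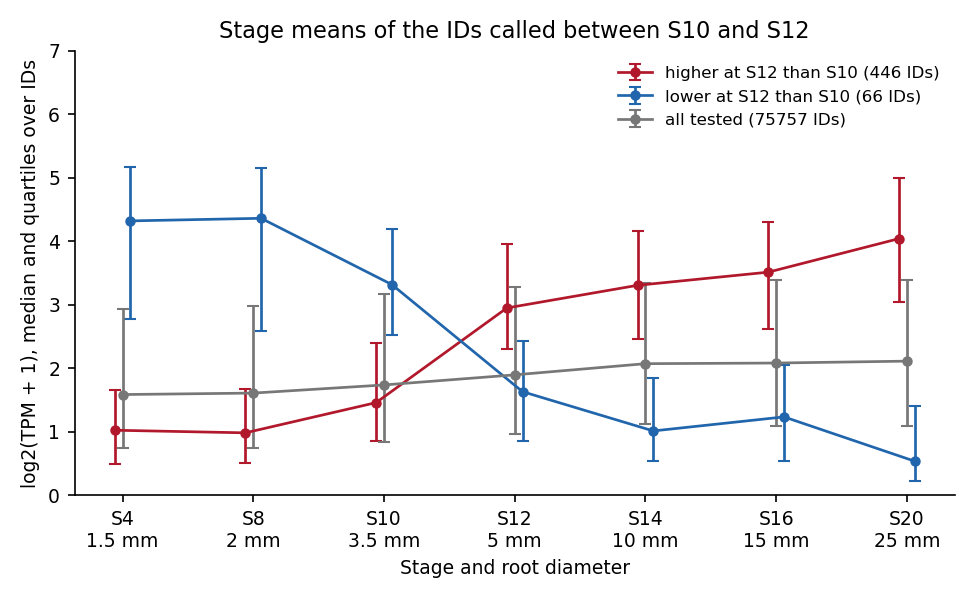
Medians (points) and quartiles (bars) over IDs of the stage means in log2(TPM + 1), for the IDs called higher (red, 446) or lower (blue, 66) at S12 than at S10 and for all IDs tested (grey, 75757), by stage and root diameter. The gap between S10 and S12 was used to choose the coloured lists. Their storage medians, from 3.31 to 4.04 and from 0.54 to 1.24, lie further along the same direction than at S12.

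The step within pencil roots was compared with the steps within the other root classes, which share no library with it. The difference of the S10 to S12 step from the S4 to S8 step within fibrous roots was called for 9 IDs (0.0119%), 7 with a more positive and 2 with a more negative pencil step (limma interaction contrast, same rule). All 7 were among the 446 higher IDs. Their median log2 fold was 2.09 in the pencil step and -0.36 in the fibrous step, which their choice favours. For most of the 512 IDs a difference from the fibrous step was thus not detectable with 4 libraries per stage. The count was 1 without S10 replicate 1, 192 without S10 replicate 2, 2 without S10 replicate 3, 5 without S12 replicate 2 and 2 without S12 replicate 4. It was also 1 with a pseudocount of 5.

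The difference from the S14 to S16 step within early storage roots was called for 61 IDs (0.0805%), 52 with a more positive and 9 with a more negative pencil step. In the 52 the median log2 fold was 1.43 between S10 and S12 and -0.99 between S14 and S16, and 28 of them were among the 446. In the 9 the medians were -1.07 and 1.55. These IDs were chosen for a large difference between the steps, which favours folds of opposite sign, so the medians only describe the choice. The count was 5 without S10 replicate 1, 176 without S10 replicate 2, 8 without S10 replicate 3, 27 without S10 replicate 5, 137 without S12 replicate 2 and 0 without S12 replicate 4. With a pseudocount of 0.1 it was 5 and with median-of-ratios scaling 17. Without both replicate 2 libraries the counts were 358 for the fibrous and 522 for the storage comparison.

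Rows of the same G number, which may be transcripts or parts of 1 gene, tended to move together. Of the 512 called IDs, 428 carried a G number and 84 the prefix MSTRG, so MSTRG rows made up 16.4% of calls and 24.6% of IDs tested. They were 59 of the 446 higher and 25 of the 66 lower IDs. For 175 called rows another row of the same G number was tested, 276 rows in all. Of these, 236 (85.5%) had a fold of the same sign as the called row. Of all IDs tested, 62.0% had a positive and 37.5% a negative fold. Among the 276 rows, 44 were called in the same direction as the called row and 0 in the opposite one. When rows of a G number were summed, 552 of 61401 units were called.

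The 4 IDs described singly are those with the largest folds in each direction among called IDs that had at least 10 TPM in the higher stage and no overlap between S10 and S12 libraries, a rule that 150 higher and 24 lower IDs met. G11540_TU19033 stood at 2.50, 5.78, 2.02 and 20.2 TPM in S10 replicates 1, 2, 3 and 5, and at 64.1, 236, 55.1 and 20.8 TPM in S12 replicates 1, 2, 4 and 5. The lowest S12 library barely exceeded the highest S10 library, both of them replicate 5. The log2 fold was 3.40 (SE 0.59, limma adjusted p = 0.00654). The ID was at 0.340 to 3.27 TPM in the 8 fibrous libraries, and its S14, S16 and S20 means were 78.3 ± 10.7, 93.2 ± 59.3 and 794 ± 125 TPM (SD, n = 4 each). The S12 values spanned those of S14 and S16, and the S20 libraries lay far above all others. Its log2 fold between fibrous and storage roots was 6.25 (SE 0.38, limma adjusted p = 1.73e-12).

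MSTRG.54153 had its highest stage mean at S12. It stood at 1.41, 2.62, 0.530 and 4.19 TPM in S10 replicates 1, 2, 3 and 5, and at 20.2, 32.9, 41.1 and 10.6 TPM in S12 replicates 1, 2, 4 and 5. All S12 libraries lay above all S10 libraries, and the log2 fold was 3.08 (SE 0.54, limma adjusted p = 0.00746). It was at most 0.410 TPM in the fibrous libraries, and its S14, S16 and S20 means were 7.16 ± 2.77, 7.82 ± 10.6 and 7.58 ± 3.60 TPM (SD, n = 4 each). In 1 S16 library it reached 23.6 TPM, so S12 and S16 overlapped. The fold from S12 to S14 was -1.66 (SE 0.54, limma adjusted p = 0.0597) and so did not pass. The row next in numbering, at 3.27 ± 2.27 TPM at S10 and 3.99 ± 2.95 at S12 (SD, n = 4), had a fold of 0.16 (limma adjusted p = 0.969).

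MSTRG.65615 fell between S10 and S12. Its values were 26.2, 15.1, 37.7 and 26.5 TPM in S10 replicates 1, 2, 3 and 5, and 5.68, 2.52, 5.60 and 3.34 TPM in S12 replicates 1, 2, 4 and 5. The stages were well separated, and the log2 fold was -2.36 (SE 0.37, limma adjusted p = 0.00351). Fibrous roots held 38.8 ± 16.3 TPM at S4 and 21.7 ± 7.61 at S8, while the S14, S16 and S20 means were 3.10 ± 1.48, 3.73 ± 2.15 and 0.870 ± 0.688 TPM (SD, n = 4 each). The S10 libraries lay within the range of the fibrous libraries, and the S12 libraries within that of S14 and S16. The fold from S8 to S10 was 0.28 (SE 0.37, limma adjusted p = 0.714) and that from S12 to S14 was -0.39 (SE 0.37, limma adjusted p = 0.590).

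G15680_TU25626 had a single high stage mean, at S10. It stood at 6.70, 8.74, 14.4 and 28.8 TPM in S10 replicates 1, 2, 3 and 5, at 2.41 TPM in S12 replicate 1, and was listed at 0 in the other 3 S12 libraries. The log2 fold was -3.32 (SE 0.82, limma adjusted p = 0.0479). With so many zeros its size depended on the pseudocount, at -5.81 for 0.1 and -1.71 for 5. In the other stages it was listed at 0 in most libraries and reached at most 8.24 TPM, so the lowest S10 library lay within their range. The call was lost in most alternatives, with an adjusted p up to 0.172 (limma, without S12 replicate 4). It was also lost without S10 replicate 1 (0.0874), S10 replicate 3 (0.160), S10 replicate 5 (0.144), S12 replicate 2 (0.0868) and S12 replicate 5 (0.109), while the fold stayed between -2.95 and -3.60 in these fits. Another row of the same G number, G15680_TU25624, was at 16.7 ± 3.30 TPM at S10 and 19.5 ± 3.06 at S12 (SD, n = 4). The sum of these rows was 31.4 ± 11.5 TPM at S10 and 20.1 ± 3.73 TPM at S12 (SD, n = 4), and it was not tested. The remaining rows, G15680_TU25623 and G15680_TU25625, had means of at most 1.725 TPM at these stages. The division of reads between such rows is uncertain.

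The other 3 IDs kept their calls without each pencil library in turn. In a fit to the pencil libraries alone none of the 4 passed, with limma adjusted p from 0.109 to 0.188.

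**Figure D5:**
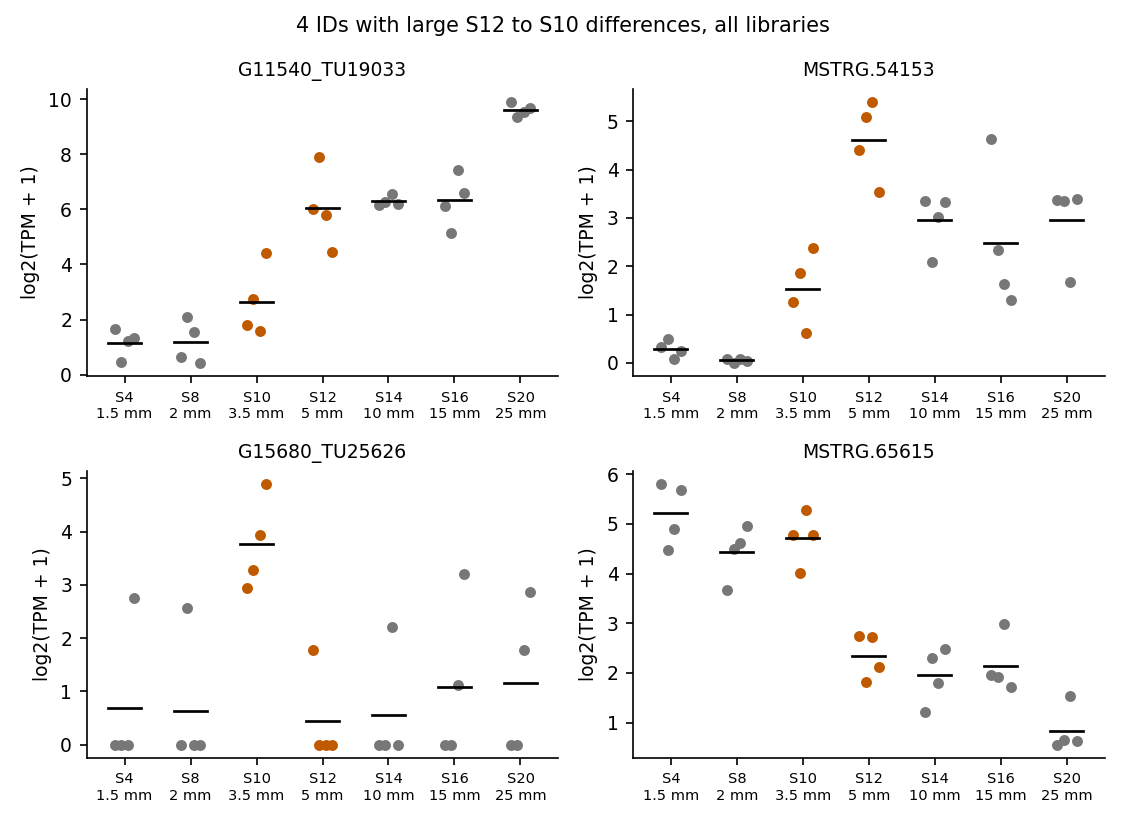
Values of the 4 IDs in log2(TPM + 1) in every library (points) with stage means (lines), pencil libraries in orange, by stage and root diameter. Each panel has its own vertical scale. G11540_TU19033 and MSTRG.54153 are higher and MSTRG.65615 and G15680_TU25626 are lower at S12 than at S10, without overlap, and G15680_TU25626 is listed at 0 in 3 S12 libraries.

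The largest fold among all called IDs, 7.66 (SE 1.33, limma adjusted p = 0.00654), belonged to MSTRG.435, which fell outside the rule and was singled out after its values were seen. It was listed at 0 in S10 replicates 1, 2 and 5 and in S12 replicate 2, at 0.170 TPM in S10 replicate 3, and at 851, 1936 and 1188 TPM in S12 replicates 1, 4 and 5. The next row in numbering, MSTRG.436, held 886 to 3969 TPM in the S10 libraries, and 1645, 2063, 309.7 and 0 TPM in S12 replicates 1, 2, 4 and 5. The sum of these rows was 2130 ± 1482 TPM at S10 and 1998 ± 568 TPM at S12 (SD, n = 4 each), which differed by less than the spread. The fold of MSTRG.435 alone depended on the pseudocount, at 9.85 for 0.1 and 5.97 for 5.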

How the data were processed

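The authors deposited 1 table of TPM values, with 99697 rows and 28 library columns. TopHat2 2.0.0 and RSEM 1.3.1 are named, per the submitters' processing notes. Their roles, the genome build and the annotation are not given in the sources used here. Values were analysed as log2(TPM + 1), and fold changes on that scale understate low IDs. limma 3.58.1 (R 4.3.3, trended prior) was fitted to the 7 stage means of all 28 libraries, with no covariate. Single values per library were compared by exact permutation with SciPy 1.17.1, NumPy 2.4.6 and pandas 2.3.3 in Python 3.11.15, and plots used Matplotlib 3.10.9. Replicates carry the numbers of the column names, which differ from those of the titles for some libraries. The comparison, lists and tests were chosen with earlier results of these data known. Named IDs are the 2 largest folds in each direction among called, non-overlapping IDs with at least 10 TPM in the higher stage. The alternatives were other pseudocounts, filters, scalings, library weights, a replicate block, a fit to the pencil stages, no fold threshold, summing by G number and leaving out libraries. The fit without both replicate 2 libraries, the check of left-out libraries and the lists of non-overlapping IDs were added after the data were seen. The steps were tested on simulated data.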

Additional observations from a re-analysis of the deposited data

Results flagged for a closer look

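In G15680_TU25626, S12 replicate 1 stood apart from the other S12 libraries at 2.41 TPM, since they are listed at 0. With 3 values at 0 any positive value stands apart, so the rate of 1 in 20 groups that chance gives for continuous values does not apply. The same ID also had 3 values at 0 and 1 positive value at S4 (5.75 TPM), S8 (4.93 TPM) and S14 (3.64 TPM). The S10 to S12 step differed from the S4 to S8 step for 9 IDs and from the S14 to S16 step for 61 IDs by limma interaction contrasts, with lowest adjusted p-values of 0.0114 and 0.0162.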

How the results depend on the processing

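The position between fibrous and storage roots kept its direction in all 14 alternatives. Without 1 pencil library it ran from 22.7 to 32.3 points and the difference in IDs detected from 2364 to 3484, where 3 against 4 libraries cannot go below an exact permutation p of 0.0571. The difference in IDs detected was 1828 at 0.1 TPM. The difference in distance from the stage mean ran from -0.0109 to 0.104. The 512 calls became 158 with a pseudocount of 5, 294 with median-of-ratios scaling, 240 with quantile normalization, 2160 with library weights (S10 replicate 1 had a weight of 3.46 and S10 replicate 2 of 0.722), 9 in the fit to pencil roots alone, 1444 without both replicate 2 libraries, and 105 to 1314 without 1 library. The 9 calls against the fibrous step became 1 with a pseudocount of 5, 79 with weights, 14 with rows summed, 358 without both replicate 2 libraries and 1 to 192 without 1 library. The 61 calls against the storage step became 5 with a pseudocount of 0.1, 40 with a filter of 5 TPM, 17 with median-of-ratios scaling, 1770 with weights, 522 without both replicate 2 libraries, and 0 to 176 without 1 library. In these step comparisons only pencil libraries and S4 replicate 1 were left out. The causes were not tested.

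With the replicate block the counts were 231, 0 and 13. No pairing by number was seen in the 3 same-numbered pairs. Their deviations had correlations of -0.023 to -0.009, beside -0.103 to 0.121 for other pairs. Of 6 libraries, 0 correlated best with their own number. So few pairs cannot decide whether a number marks a shared plant or batch. Depth limits were not assessed, since TPM keeps no depth.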
